A study of Mus musculus with 57 samples.

Results

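Voltage-gated ion channels open and close with the membrane potential and so set how neurons fire. Pore-forming alpha subunits pass sodium, potassium or calcium ions, while beta and alpha2delta subunits alter their gating or carry them to the membrane. In the cortex, sodium channels drive the upstroke of the action potential, potassium channels end it and space the next, calcium channels couple it to transmitter release and to dendritic signals, and HCN channels carry a current that opens on hyperpolarisation. Genes of these families were taken by symbol from the deposited table: Scn genes of alpha and beta subunits, Kcn genes of the voltage-gated families, Hcn, Cacna1, Cacna2d and Cacnb. The rule gave 72 genes of the 18088 listed. Of these, 70 encode proteins and were put in 15 classes, and 2 are antisense RNAs that share the symbol stem, Kcnd3os and Kcnq1ot1. Another 5 symbols that fit the rule (Kcna7, Kcna10, Kcnv2, Scn4a and Scn11a) have no row in the table used here. All 72 passed the filter on low values (at least 10 in at least 3 libraries).

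RNA came from the prefrontal cortex of C57BL/6J mice on postnatal day 25. The genotypes were wild type (WT) and heterozygous (HT) for Shank3 delta C, an allele of the gene for a postsynaptic scaffold of excitatory synapses. They had received vehicle, lithium (a mood stabiliser) or fluoxetine (a serotonin reuptake inhibitor) for 3 weeks, from postnatal day 3 to 24, through the milk of their mothers. Genotype, drug and sex made 12 groups of 5 libraries, except for 4 in WT lithium females, 4 in HT lithium males and 3 in HT vehicle males, 56 in all. Every group, vehicle included, was thus dosed by way of a dam, and the labels name neither dams nor litters, so p-values treat pups as independent and cover only the spread between these libraries.

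The libraries held from 22984556 to 35969254 reads over the listed genes, and values are normalized counts, that is reads divided by 1 size factor per library. Shank3 itself lay at 6910 ± 713 (SD, n = 5) in WT and 7524 ± 1032 (SD, n = 5) in HT vehicle females, but its gene-level value joins all exons and so does not check the genotype. All 10 markers of cortical excitatory neurons were listed and none was at 0 in most libraries, and the same held for 8 of 8 striatal and 5 of 5 olfactory bulb markers. The olfactory level of a library, the mean of those 5 markers (Eomes, Doc2g, Cdhr1, Th and Trh) each set to 1 over all libraries, ran from 0.0769 to 4.41. It was above 2 in 10 libraries, 3 of them among the 5 WT fluoxetine females. Libraries that stood apart were HT vehicle female 1, in choroid plexus markers, and HT lithium female 5, in mitochondrially encoded genes. In bulk tissue, fewer cells of a type and less RNA per cell cannot be told apart.

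Genes are compared here only by their level per kb of transcript, in normalized counts. Above 1000 normalized counts per kb stood 9 genes, among them Cacnb3, a cytoplasmic beta subunit of calcium channels, with a mean of 3102, the sodium channel beta subunit gene Scn2b at 1587 and the ELK family gene Kcnh3 at 1400. At least 100 per kb was reached by 52 genes and at least 10 by 68. Among sodium channel alpha subunits, Scn2a (1245 per kb) and Scn8a (994), of the excitatory axon initial segment, stood above Scn1a (492.7), which is needed in fast-spiking interneurons, and Scn3a (187), a form of the developing brain. Sensory neuron forms were low, with Scn9a at 6.21 and Scn10a at 1.36, and so was the retinal calcium channel gene Cacna1f at 0.929.

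Among calcium channel pore genes, the P/Q-type gene Cacna1a, which serves transmitter release, had a mean of 870 per kb, the R-type gene Cacna1e 575 and the N-type gene Cacna1b 506. Genes of the T-type channels, which open near the resting potential and support burst firing, followed at 494 for Cacna1g, 452 for Cacna1i and 272 for Cacna1h. The dendritic L-type genes Cacna1c and Cacna1d lay at 258 and 247. Of the Kv3 genes, whose channels repolarise fast enough for high firing rates, Kcnc4 lay at 690. Of the HCN genes, Hcn2 stood at 887, well above Hcn3 (173) and Hcn4 (66.4).

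**Figure D1:**
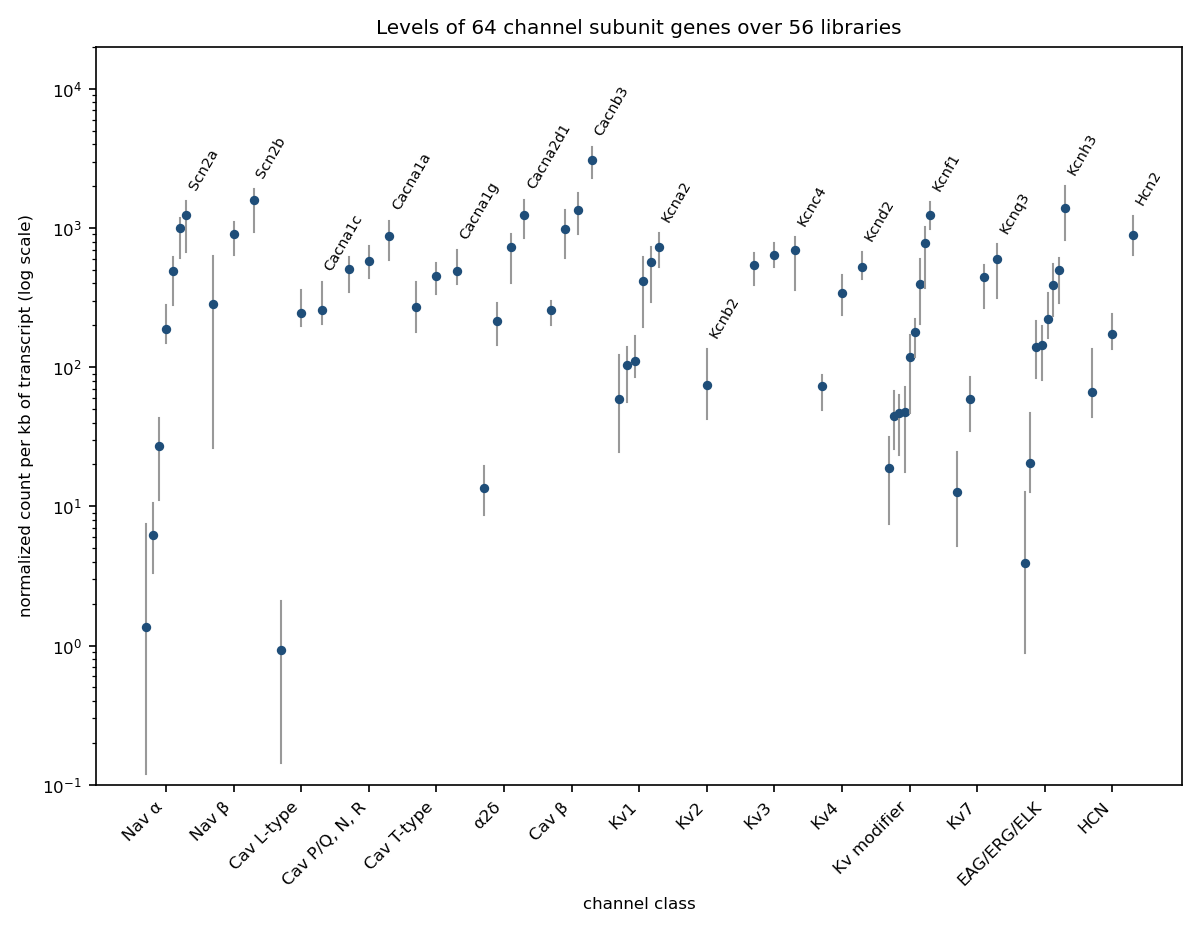
Mean normalized count per kb of the longest transcript (points, log axis) for 64 of the 70 protein-coding subunit genes by class, with the lowest and highest of 56 libraries (lines) and the highest of the genes drawn in each class named. Of the genes drawn, Cacnb3 stands highest, at 3102 per kb. The line of Scn10a, which was 0 in some libraries, is drawn down to near the lower edge of the axis.

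The median coefficient of variation over the 56 libraries was 15.7%, and genes that exceeded 40% included Scn10a, Kcnh8, Cacna1f and Scn4b. WT fluoxetine females stood at both ends, with the highest group mean for 20 of the 70 protein-coding genes and the lowest for 25. This group had the highest mean for all 3 T-type genes and the lowest for Scn1a, Scn2a and Scn8a.

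For part of the 72 genes, the values moved with the olfactory level. Pearson and Spearman correlations of each of the 72 genes with this level were computed over the 56 libraries after the pattern had been seen, with p-values from 100000 permutations adjusted over the 72. Spearman's rho was at least 0.7 for 9 genes and at most -0.7 for 14, that is for 31.9% of the subunit genes against 9.26% of the 18021 tested genes that are not olfactory markers. Strongly positive were the pacemaker channel gene Hcn4 (rho 0.85, Pearson's r 0.95), Kcnh8 (rho 0.83, r 0.88) and Kcnd3 (rho 0.82, r 0.82), a subunit of the A-type current. The lowest rho was that of Kcnc4 (rho -0.84, r -0.89), with the alpha2delta gene Cacna2d3 (rho -0.84, r -0.87), Kcnh1 (rho -0.83, r -0.92), Scn2b (rho -0.83, r -0.90) and Scn2a (rho -0.78, r -0.91) beside it. For each of these 8 the permutation p was 1e-05, the smallest the permutations can give, and the adjusted value 2.18e-05 for rho and 1.8e-05 for r.

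In the library of highest olfactory level (4.41, WT fluoxetine female 4) Hcn4 read 825, and in the next (4.06, WT fluoxetine female 1) it read 719. In the library of lowest level (0.0769, WT fluoxetine female 5) Hcn4 read 381. Scn2a went the other way, with 6045, 6421 and 12745 in those 3 libraries, and Scn4b, a beta subunit abundant in striatal neurons, with 132, 225 and 1616. The 3 libraries belong to 1 group, so the width of that group lay between its own members. The 2 libraries of highest level held the 2 highest of all 56 values for 8 subunit genes and the 2 lowest for 21. Such genes were not counted over all genes, so nothing particular to the subunit genes is shown by these counts.

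Without the 2 libraries farthest from the median olfactory level, r was 0.92 for Hcn4, 0.83 for Kcnh8, 0.76 for Kcnd3, -0.85 for Kcnc4, -0.82 for Cacna2d3, -0.88 for Kcnh1, -0.85 for Scn2b and -0.87 for Scn2a. Taken within the 12 groups, from deviations from each group mean, it was 0.96, 0.87, 0.86, -0.94, -0.88, -0.93, -0.91 and -0.91 in that order. By class, the relation divided close relatives. Among Kv3 genes rho was -0.84 for Kcnc4 and -0.70 for Kcnc2 but 0.24 for Kcnc1 (adjusted permutation p 0.0971). For Kcnc1 r was 0.40 (adjusted permutation p 0.00308). In the sodium channel alpha genes rho was positive for Scn3a (0.79) and negative for Scn2a and Scn8a (-0.77). For the T-type genes rho was 0.14 for Cacna1i (adjusted permutation p 0.318), 0.26 for Cacna1g (0.0699) and 0.35 for Cacna1h (0.0117). Their r was 0.30 (0.0302), 0.52 (7.66e-05) and 0.60 (3.35e-05) in that order. Of the 3 L-type genes, Cacna1c (rho 0.75) and Cacna1d (rho 0.75) were positive, and the low Cacna1f stood at rho -0.24 (adjusted permutation p 0.0991). For Cacna1f r was -0.30 (adjusted permutation p 0.0338). Summed olfactory marker counts ran from 250.5 to 14785 in WT fluoxetine females and from 360 to 7634 in WT vehicle females, which overlap. They ran from 1422 to 8023 in WT vehicle males and from 239 to 827 in HT lithium males, which do not overlap. That pair differs in genotype and in drug and is not compared here. The olfactory level ran from 0.1365 to 1.09 in HT vehicle males and from 0.0807 to 0.246 in HT lithium males, which overlap.

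**Figure D2:**
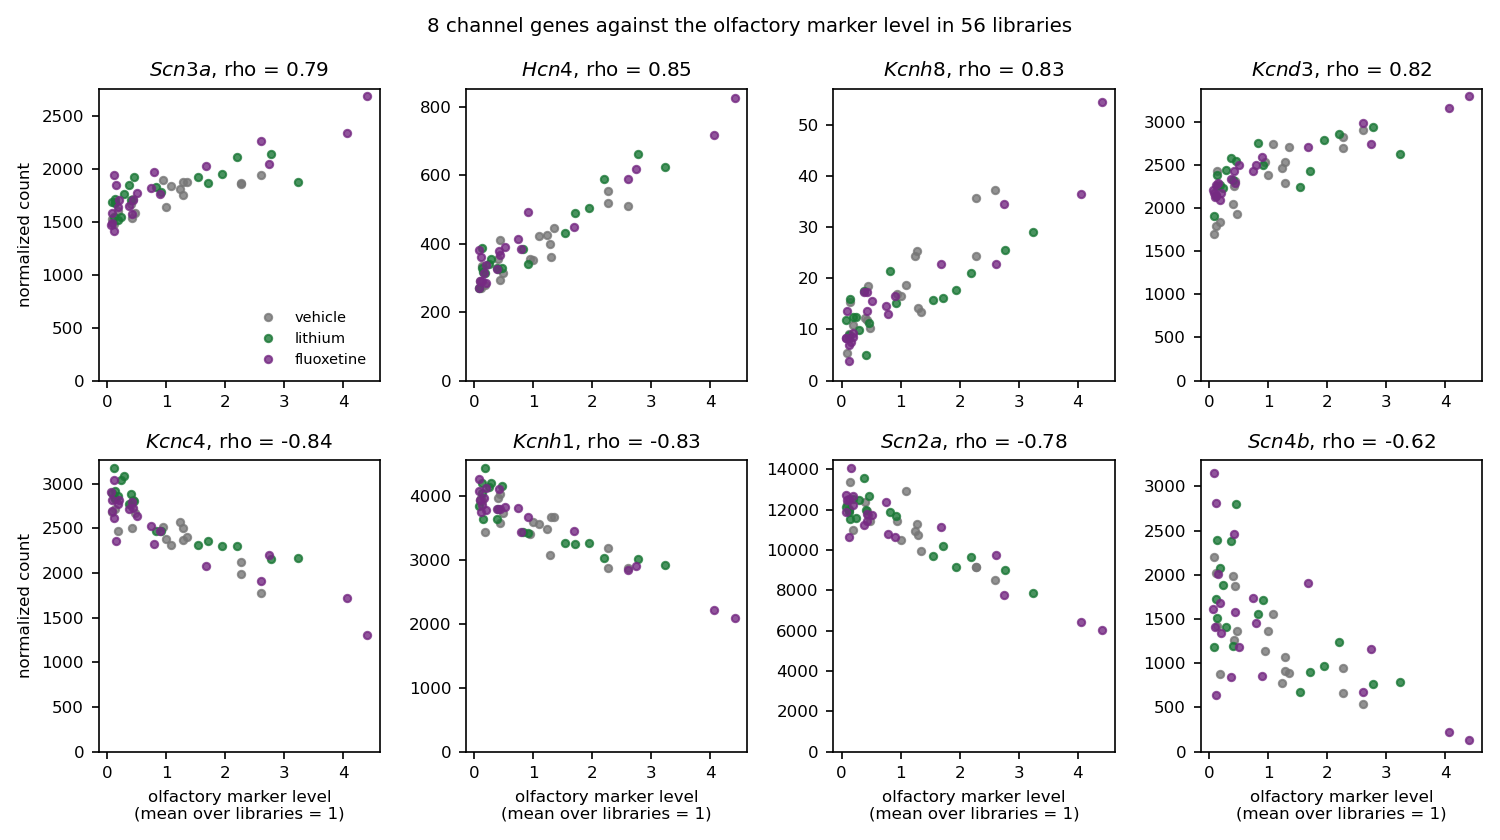
Normalized counts of 8 channel genes (vertical axes) against the olfactory marker level (horizontal axis, mean over libraries set to 1), 1 point per library, coloured by drug. Scn3a, Hcn4, Kcnh8 and Kcnd3 are high and Kcnc4, Kcnh1, Scn2a and Scn4b low at the right, where the 2 rightmost points are WT fluoxetine females.

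Whether lithium moved these genes was asked in each genotype with the sexes averaged. In WT mice (9 lithium against 10 vehicle libraries) the 3 T-type calcium channel genes, the Kv3 gene Kcnc1, the Kv1 gene Kcna1 and the Kv modifier genes Kcnf1 and Kcng3 were among those higher, and the sodium channel, Kv4 and HCN genes gave no call. At an adjusted p below 0.05 over all genes (limma), 13 of the 72 were called, against 11.7% of all 18026 genes tested. Of these 12 were higher, against 7.05% of all genes, and 1 was lower, against 4.65%. The median log2 fold change of the 70 protein-coding genes was 0.11, against -0.003 over all genes. In HT mice (9 against 8 libraries) 7 of the 72 were called, all higher, against 9.77% of all genes called in either direction, 5.06% called higher and 4.7% called lower. There the median was 0.10, against 0.002.

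All 3 T-type genes were called higher in WT and 2 of the 3 in HT. With the GC and length correction described below, Cacna1h in WT was the only one of these calls that stayed. Cacna1i rose by 0.20 ± 0.05 (log2 fold change ± SE) in WT (limma adjusted p = 0.00573) and by 0.33 ± 0.06 in HT (0.000143). In females its vehicle values were 3693, 3975, 3643, 3347 and 4174 in WT and 3519, 3819, 3302, 3777 and 4026 in HT. Under lithium they were 5034, 4801, 4404 and 4558 in WT and 4896, 4637, 4841, 5222 and 4391 in HT. In females of either genotype the lithium and vehicle libraries did not overlap. Males gave 4438, 4243, 4704, 4218 and 4155 under vehicle and 5257, 5082, 4160, 4115 and 4576 under lithium in WT, where the groups overlapped. In HT males 3688, 4025 and 4351 under vehicle stood against 4353, 5279, 4945 and 4842 under lithium, which do not overlap.

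Cacna1g rose by 0.16 ± 0.06 in WT (adjusted p = 0.0480) and by 0.24 ± 0.06 in HT (0.00806). Its vehicle values in females were 3524, 3925, 3348, 3439 and 3917 in WT and 3500, 3507, 3356, 3590 and 3873 in HT. Its lithium values in females were 4898, 4230, 4122 and 4300 in WT and 4510, 4182, 4662, 4924 and 4497 in HT, all above vehicle. Males overlapped in both genotypes, with 4595, 4039, 4009, 3911 and 3832 under vehicle and 4971, 4625, 3639, 3931 and 4116 under lithium in WT, and 3726, 4056 and 4071 against 4019, 4454, 4444 and 4335 in HT. Its WT call was the weakest of the 13, and its adjusted p rose above 0.05 with TMM factors (0.0600), with edgeR on the recovered reads (0.0547) and with the compared groups alone (0.0628).

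Cacna1h rose by 0.33 ± 0.08 in WT (adjusted p = 0.00469). Vehicle females read 1800, 2094, 1515, 1860 and 2001 and lithium females 2725, 2350, 2158 and 2480, with no overlap. Vehicle males read 2465, 1799, 2056, 2428 and 2182 and lithium males 2959, 3033, 2194, 2756 and 2207, with overlap. In HT its log2 fold change was 0.24 ± 0.09 (0.0637), with 2041, 1686, 1481, 1687 and 2070 against 2389, 2124, 2351, 2867 and 2614 in females, which do not overlap. HT males read 2087, 2136 and 2163 under vehicle and 1865, 2209, 2353 and 2243 under lithium, with 1 lithium male below every vehicle male.

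The Kv3 gene Kcnc1 rose by 0.17 ± 0.05 in WT (adjusted p = 0.00925) and 0.23 ± 0.05 in HT (0.00199). WT vehicle females read 4636, 4801, 4630, 4351 and 4585 and lithium females 5514, 5709, 5098 and 5202. HT vehicle females read 4486, 4700, 4097, 4571 and 4438 and lithium females 5253, 5562, 5552, 5820 and 4824, and HT males 4472, 4663 and 4947 against 5234, 5477, 5386 and 5202. Those 3 pairs of groups did not overlap, whereas WT males did (4429 to 5337 under vehicle, 4569 to 5726 under lithium). Markers of parvalbumin interneurons, the cells best known for Kv3 channels, gave 0 calls of 6 in either genotype (limma, with medians of 0.09 in WT and 0.21 in HT). The part of that cell type in the Kv3 result was not tested.

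Sequences next to the start sites of 2 of the genes that rose in both genotypes are shown because they differ in base composition and in GC boxes, the sites bound by Sp1. The 250 bases before the RefSeq start (GRCm38.p6, plus strand) run from chr7:46396218-46396467 for Kcnc1 and chr15:80286988-80287237 for Cacna1i, 5′ to 3′, with GC boxes (GGGCGG or its complement CCGCCC) in capitals.
Kcnc1: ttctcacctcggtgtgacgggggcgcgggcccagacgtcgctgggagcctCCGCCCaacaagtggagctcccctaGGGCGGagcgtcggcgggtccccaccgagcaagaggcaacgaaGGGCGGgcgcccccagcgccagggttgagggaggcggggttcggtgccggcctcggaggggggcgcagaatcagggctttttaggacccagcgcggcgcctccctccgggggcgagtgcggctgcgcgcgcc
Cacna1i: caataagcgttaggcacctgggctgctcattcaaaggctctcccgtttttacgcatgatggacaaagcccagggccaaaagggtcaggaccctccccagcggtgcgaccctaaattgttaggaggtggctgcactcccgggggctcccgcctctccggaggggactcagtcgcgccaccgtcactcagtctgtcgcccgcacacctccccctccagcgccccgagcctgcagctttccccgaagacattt
The Kcnc1 window was 74.4% G and C and held 3 GC boxes, and that of Cacna1i was 62.4% and held 0, against a median of 52.4% over all windows. RefSeq entries matched 48 of the 72 genes. Of these 30 had a GC box (62.5%), against 35.4% of 27025 genes and 32.7% of 32851 windows. The cyclic AMP response element TGACGTCA was found in 0 of 48 (1.77% of genes) and the box TATAAA, on either strand, in 2 of 48 (14.3%). The E-box CACGTG was found in 1 of 48 (6.86%). No chromosome was left out of the shares of all genes and windows. Each motif was searched on both strands, no motif contains another, and a match describes letters only.

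Calls under lithium were also made in other classes. The R-type gene Cacna1e rose by 0.26 ± 0.06 in WT (adjusted p = 0.00234) with values from 6783 to 9088 under vehicle and from 8047 to 11001 under lithium, which overlap. In HT it stood at 0.09 ± 0.06 (0.432). The P/Q-type gene Cacna1a went the other way about: it rose by 0.32 ± 0.08 in HT (0.0101) and stood at 0.18 ± 0.08 in WT (0.117). HT vehicle females read 4695, 6874, 5662, 6752 and 6128 and lithium females 8337, 7319, 7491, 7074 and 7308. HT males read 6042, 6864 and 6604 against 7874, 8886, 7795 and 7738, without overlap in either sex. Among subunits that accompany the pore, Cacna2d2 rose by 0.29 ± 0.10 in WT (0.0380) and Cacnb3 by 0.22 ± 0.07 in HT (0.0247). Without the libraries of olfactory level above 2 these were no longer called, at 0.22 (0.143) and 0.20 (0.0506).

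In the Kv families outside Kv3, Kcna1, the axonal Kv1 channel of episodic ataxia, rose by 0.44 ± 0.12 in WT (adjusted p = 0.0107). Its vehicle values were 1528, 1431, 1632, 1682 and 1487 in females and 1394, 1568, 1717, 1260 and 1345 in males, against 1593, 2509, 1837 and 2296 and 1573, 2011, 1840, 2505 and 2413 under lithium, so that 7 of 9 lithium libraries stood above every vehicle library. Among genes of silent Kv subunits, Kcnf1 rose by 0.17 ± 0.05 (0.0193) and the low Kcng3 rose by 0.57 ± 0.18 (0.0249, means per group from 39.5 to 82.7). In HT, Kcnh4 of the ELK family rose by 0.33 ± 0.11 (0.0397).

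The only call in the lower direction under lithium was Kcnq1, best known from heart and ear, at a mean of 38.4 normalized counts. It fell by 0.66 ± 0.18 on the log2 scale in WT (adjusted p = 0.00972). WT males gave 55.9, 45.9, 73.9, 65.4 and 53.2 under vehicle and 26.5, 30.1, 45.3, 19.1 and 33.9 under lithium, without overlap, and females 36.2, 46.2, 42.2, 51.4 and 41.4 against 32.9, 28.5, 40.8 and 31.0, with overlap. Its antisense neighbour Kcnq1ot1, an imprinted long RNA, rose by 0.45 ± 0.10 (0.00187). That RNA read 878, 880, 674, 827 and 619 in WT vehicle females and 1007, 1151, 1105 and 1134 in WT lithium females. Those groups did not overlap, whereas those of WT males did. With the GC and length correction the change of Kcnq1ot1 in WT was 0.03 (limma adjusted p = 0.896), and that of Kcnq1 stayed at -0.66 (0.0104). The libraries were strand-specific, but no source used here states whether counting used strand, so reads of the pair may not be fully separated. In HT they stood at -0.53 ± 0.19 (0.0652) and 0.15 ± 0.11 (0.434).

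No sodium channel, L-type, Kv4 or HCN gene was called under lithium in either genotype (limma), and the pacemaker family member Hcn3 stood at 0.22 ± 0.08 in WT (adjusted p = 0.0595) and 0.24 ± 0.09 in HT (0.0706). At an unadjusted p below 0.05, limma gave 23 of the 72 genes in WT, against 25.5% of all genes, and 19 in HT, against 23.5%. WT and HT lithium comparisons share no library. Both called 4 genes, Cacna1g, Cacna1i and Kcnc1 among them, which are 30.8% of the WT calls and 57.1% of the HT calls. Over all 72 genes, 37 lay above 0 in both, 11 below 0 in both and the others differed in sign. Shared calls and signs were not counted over all genes, so no agreement particular to the subunit genes is shown. The difference of the 2 lithium effects was called for 0 of the 72 by limma (0.0166% of all genes, 0.0111% higher and 0.00555% lower), 5 had an unadjusted p below 0.05, against 9.5% of all genes, and edgeR also called 0. A call in 1 genotype alone is therefore not shown to differ from the other.

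**Figure D3:**
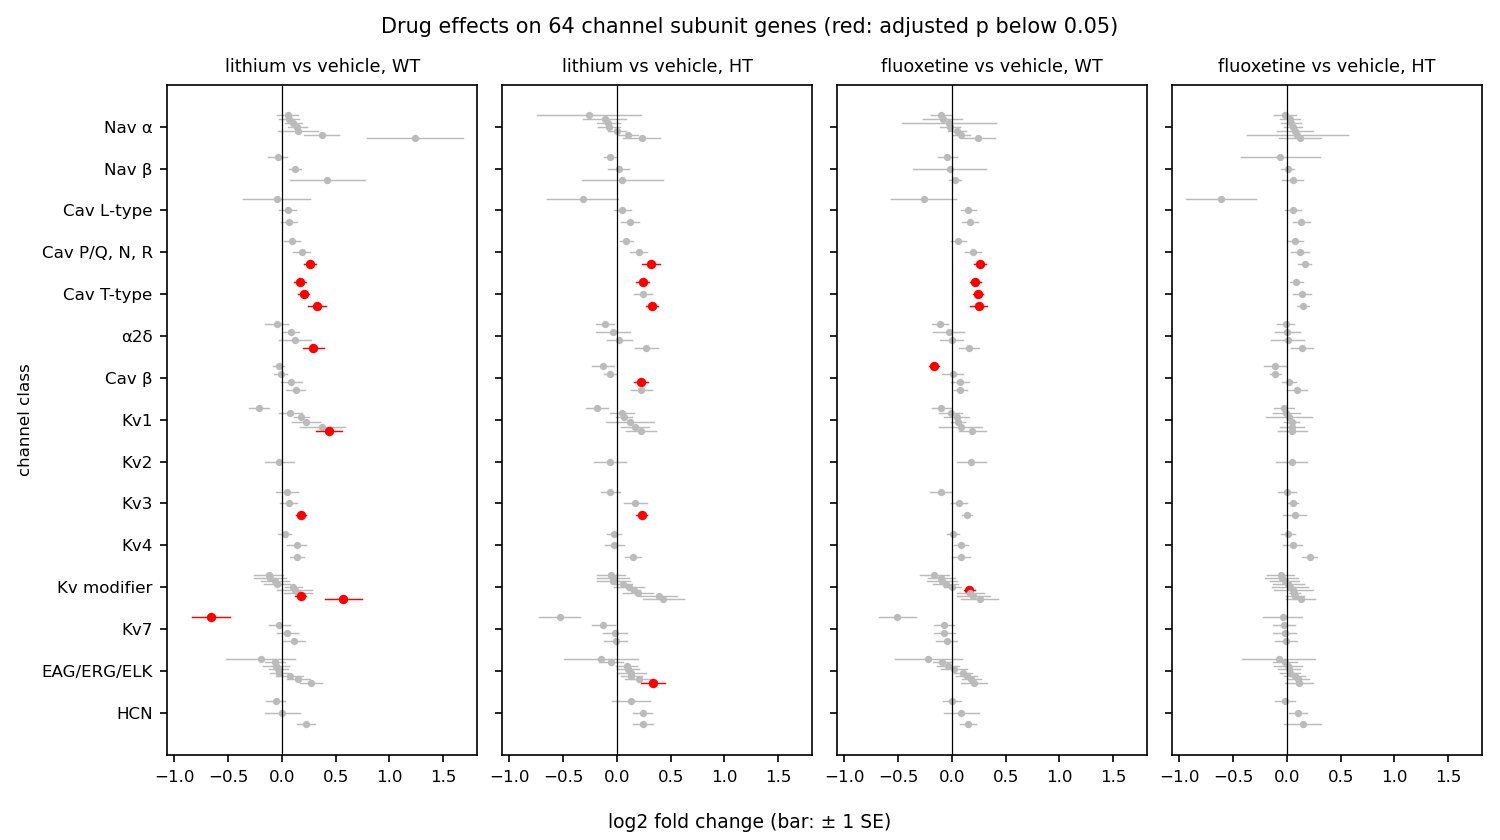
Log2 fold change ± 1 SE (horizontal axis) of 64 of the 70 protein-coding subunit genes by class (vertical axis) for each drug against vehicle in each genotype, with called genes in red. The 3 T-type genes lie to the right of 0 in all 4 panels, with 3, 2, 3 and 0 called, and the last panel has no call.

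Counted per sex, 6 of the 72 genes had every lithium library above every vehicle library in WT females and 0 below, where 9.71% of all genes were apart in either direction. WT males gave 3 above (Kcnf1, Kcnh4 and Scn3b) and 1 below (Kcnq1), against 4.49% of genes. HT females gave 6 above and 0 below, against 6.49%. HT males, with 3 vehicle libraries, gave 14 above and 3 below, against 17.5%.

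Fluoxetine was compared with the same vehicle libraries as lithium, so its values are given beside those of lithium and not as further evidence. In WT (10 against 10 libraries) 8 of the 72 genes were called, against 5.18% of all genes. Of these 7 were higher, against 3.19%, and 1 was lower, against 1.99%. The T-type genes were all among them, with Cacna1i at 0.24 ± 0.05 (adjusted p = 0.00234), Cacna1g at 0.22 ± 0.05 (0.0128) and Cacna1h at 0.25 ± 0.08 (0.0471). Cacna1e rose by 0.26 ± 0.06 (0.00486) and Kcnf1 by 0.16 ± 0.05 (0.0437). Cacnb2 fell by 0.17 ± 0.05 on the log2 scale (0.0369), from 1331 ± 127 and 1371 ± 111 in vehicle females and males to 1175 ± 103 and 1232 ± 47.0 (SD, n = 5 each). Without the 10 libraries of olfactory level above 2, 3 of which are WT fluoxetine females, 4 of these 8 genes were no longer called. They were Cacna1g at 0.15 (adjusted p = 0.0680), Cacna1h at 0.15 (0.277), Kcnf1 at 0.14 (0.173) and Cacnb2 at -0.15 (0.0769), while Cacna1i stood at 0.23 (0.0147) and Cacna1e at 0.25 (0.0297).

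Some of these rises were larger in females, though none of the sex differences stayed called with the GC and length correction. Cacna1i read 4777, 5478, 4843, 5274 and 4914 in WT fluoxetine females, all above the vehicle females, and 4238, 4164, 4639, 5152 and 4542 in males, where 4 of 5 lay inside the vehicle range of 4155 to 4704 and 1 above it. Its log2 fold change was 0.43 ± 0.07 in females and 0.06 ± 0.07 in males. The difference of the effects, males minus females, was -0.37 ± 0.10 (limma adjusted p = 0.0198). Cacna1h read 2670, 3044, 2199, 3383 and 2060 in fluoxetine females and 1962, 2199, 2093, 2405 and 2158 in males, with effects of 0.51 ± 0.11 and -0.01 ± 0.11 and a difference of -0.52 ± 0.16 (0.0339). Kcnf1 read 6944, 7141, 6074, 7316 and 6934 in fluoxetine females, above every vehicle female, and 5750, 5839, 5506, 5988 and 5444 in males. Its difference was -0.32 ± 0.10 (0.0386). With the GC and length correction the difference was -0.12 for Cacna1i (limma adjusted p = 0.470), -0.25 for Cacna1h (0.377) and -0.19 for Kcnf1 (0.315).

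In all, 5 of the 72 genes had a called sex difference of the fluoxetine effect in WT, 1 positive and 4 negative, against 7.74% of all genes (4.58% positive and 3.16% negative). The others were Kcnh2, the cardiac ERG channel, at -0.55 ± 0.17 (adjusted p = 0.0405) and Cacna2d1, the gabapentin-binding subunit, at 0.45 ± 0.15 (0.0462). Kcnh2 averaged 1179 ± 236 in WT fluoxetine females and 897 ± 95.8 in vehicle females, and 890 ± 42.0 and 1005 ± 115 in males. Cacna2d1 averaged 7414 ± 1536 and 9230 ± 514 in females and 9650 ± 1384 and 8860 ± 803 in males (SD, n = 5 each). Kcnh2 was also correlated with the olfactory level (rho 0.66, adjusted permutation p 2.18e-05). Without the 10 libraries of olfactory level above 2, 0 of the 72 sex differences were called and 2 genes of all 18026. With the GC and length correction 0 of the 72 were called as well, and 2 of all genes. The other sex differences gave 0 calls of 72 each by limma, with 3 genes at an unadjusted p below 0.05 for lithium in WT, 4 for lithium in HT, 4 for fluoxetine in HT and 1 for genotype under vehicle (8.63, 8.85, 6.62 and 8.73% of all genes), and edgeR gave 0 as well. The shares of all genes called there were 0.172% for lithium in HT (0.161% positive and 0.0111% negative), 0.0277% for fluoxetine in HT (0.0277% positive and 0% negative) and 0% for the other pair. For fluoxetine in WT, without WT fluoxetine female 2 the count was 0, and without WT fluoxetine female 5 it was 21.

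In HT, fluoxetine gave 0 calls of 72 (limma), where no gene of the table was called (0%). 5 genes had an unadjusted p below 0.05, against 7.25% of all genes, and edgeR also gave 0. The smallest p among the genes belonged to Kcnd1, at 0.21 ± 0.07 (adjusted p = 0.427). Cacna1i stood at 0.15 ± 0.05 (0.454), and its HT fluoxetine females, at 4688, 4349, 4092, 4225 and 4721, were all above the HT vehicle females, the only gene of the 72 so placed in either sex (3.06% of all genes were apart in females and 3.52% in males). The difference of the fluoxetine effects between genotypes was called for 0 of 72, with 0 at an unadjusted p below 0.05 (3.52% of all genes), so this does not show that the genotypes differed.

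**Figure D4:**
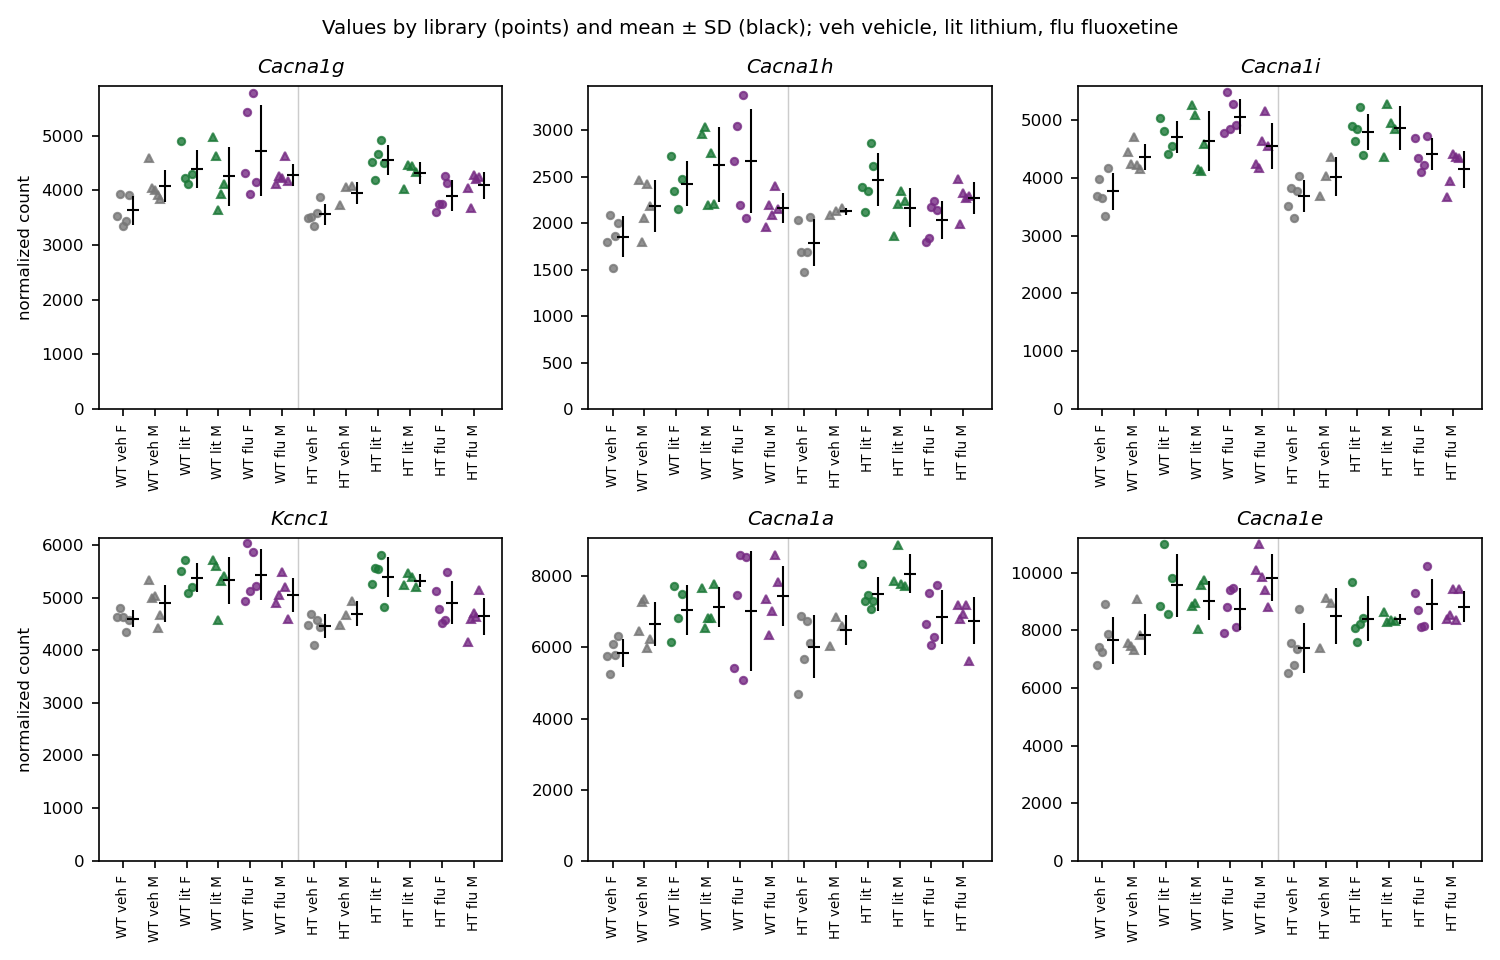
Normalized counts of Cacna1g, Cacna1h, Cacna1i, Kcnc1, Cacna1a and Cacna1e in every library (points, circles for females and triangles for males) with mean ± SD per group (black), vertical axes from 0. For Cacna1i, WT vehicle females lie between 3347 and 4174 and WT fluoxetine females between 4777 and 5478.

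HT against WT was compared under each treatment. Under vehicle, lithium and fluoxetine 0 of the 72 genes were called by limma or by edgeR, and 0% of all genes by limma in each. The counts at an unadjusted p below 0.05 were 2, 7 and 14, against 6.21, 9.82 and 11.2% of all genes. Under vehicle the median over the 70 genes was -0.003, with 35 above and 35 below 0, and Scn2a stood at 0.13 ± 0.10 and Cacna1a at 0.00 ± 0.08. Under fluoxetine the smallest p were those of Kcnh6 (-0.41 ± 0.12, adjusted p = 0.226) and Cacna1i (-0.16 ± 0.05, 0.232), and 11 of the 14 were below 0. Olfactory markers were lower in HT than in WT in 5 of 5 under vehicle (median -1.14, with 0 called) and in 5 of 5 under lithium (median -1.10, with 0 called). With the olfactory level as a covariate, 0 of the 72 genes were called in each of the 3 comparisons.

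Base composition differed between the genes called higher under the drugs and those not called. Transcripts of the 72 genes had a median of 52.7% G and C, against 49.3% over all genes, with a range from 38.6 to 65.4%. Genes called higher had a median of 55.0% under lithium in WT, 59.3% under lithium in HT and 58.1% under fluoxetine in WT. The subunit genes not called had medians of 52.4, 51.8 and 52.3% in that order. Of the genes called higher, 10 of 12, 7 of 7 and 6 of 7 were above the median of all genes. That share was not counted over the 72 genes, whose own median already lay above that of all genes. Libraries differed in how their values leaned with G and C content. The slope of log2 deviation per 10 percentage points was -0.04 ± 0.05 and -0.07 ± 0.08 in HT vehicle females and males and 0.05 ± 0.13 and 0.06 ± 0.07 in HT lithium (SD), and -0.01 ± 0.06 and -0.04 ± 0.08 in HT fluoxetine. In WT females it was -0.06 ± 0.08 under vehicle, -0.01 ± 0.06 under lithium and 0.09 ± 0.06 under fluoxetine. WT males went the other way, with 0.06 ± 0.06 under vehicle, -0.02 ± 0.08 under lithium and -0.05 ± 0.11 under fluoxetine. The mean slope was thus higher under lithium in both sexes of HT, and in WT it moved in opposite directions in the sexes under either drug. The part of the slope in the calls was not tested.

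When that trend and the trend with transcript length were removed within each library, the calls fell from 13 to 5 under lithium in WT, from 7 to 0 under lithium in HT and from 8 to 0 under fluoxetine in WT. The share of all genes called fell too, from 11.7 to 8.84%, from 9.77 to 2.82% and from 5.18 to 2.64%. All 28 calls kept their sign. The 5 that were still called included Kcna1 at 0.42 (adjusted p = 0.0183), Kcng3 at 0.56 (0.0377), Cacna1h at 0.24 (0.0298) and Kcnq1 at -0.66 (0.0104). Under lithium, Cacna1i moved to 0.09 in WT (0.173) and 0.13 in HT (0.115), and Cacna1g to 0.06 (0.496) and 0.07 (0.600). Kcnc1 moved to 0.08 in WT (0.375) and 0.07 in HT (0.576), Cacna1e in WT to 0.10 (0.213) and Cacna1a in HT to 0.15 (0.343). Kcnq1ot1, a transcript of 93092 bases with 40.3% G and C, moved to 0.03 in WT (0.896). The source of the trend was not tested. With the olfactory level as a covariate the counts went the other way, to 23, 21 and 15, and included all 28 calls. The share of all genes called rose with them, to 19.3, 17.6 and 11%.

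**Figure D5:**
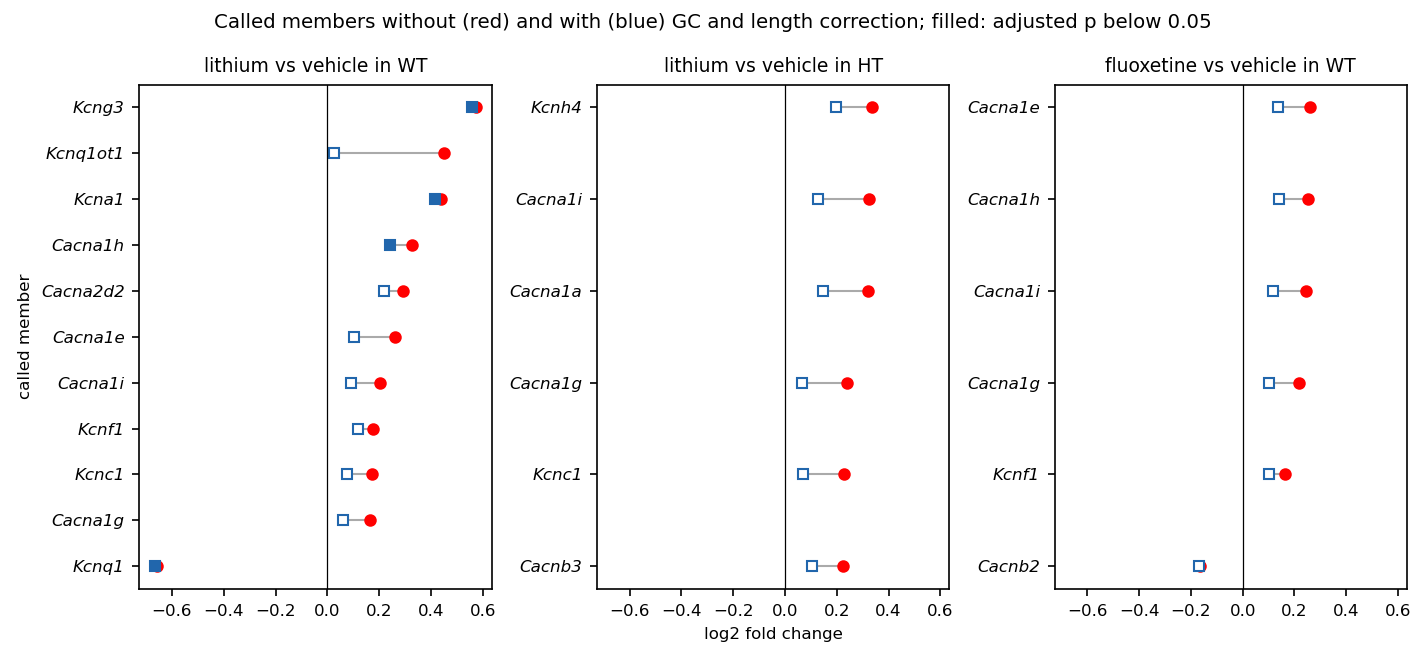
Log2 fold change (horizontal axis) of called genes without correction (red) and with correction for G and C content and length (blue, filled where the adjusted p is below 0.05), in 3 comparisons. Of the genes drawn, 4 of 11, 0 of 6 and 0 of 6 stay called, and all keep their sign.

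Neighbouring channel genes were read from 2 further lists. Of 29 other cation channel subunits, 6 were higher and 0 lower under lithium in WT, against 7.05% and 4.65% of all genes: Kcnt1, a sodium-activated potassium channel (0.28 ± 0.06, adjusted p = 0.000663), Kcnn2, the leak channels Kcnk9 and Kcnk3 and the inward rectifiers Kcnj12 and Kcnj6. In HT 4 were higher, Kcnj12, Kcnj4, Kcnt1 and Kcnj6, and 1 was lower, the sodium leak channel Nalcn (-0.26 ± 0.06, 0.00177), against 5.06% and 4.7%. Fluoxetine in WT gave 1, Kcnj12 (0.33 ± 0.08, 0.00527), against 5.18% in either direction. Of 27 auxiliary proteins, Ank3, which anchors sodium and Kv7 channels at the axon initial segment, was the only call under lithium in WT (0.23 ± 0.06, 0.0104) and under fluoxetine in WT (0.26 ± 0.06, 0.00663), so that both counts lay below the share of all genes called (11.7 and 5.18%). Lithium in HT gave 2 higher, Sptbn4 (0.34 ± 0.09, 0.00823) and Ank3 (0.20 ± 0.07, 0.0484), and 4 lower, the Kv4 partners Kcnip4 (-0.34 ± 0.09, 0.0116) and Dpp10 (-0.27 ± 0.08, 0.0262) and the sodium channel partners Fgf14 (-0.29 ± 0.09, 0.0281) and Fgf12 (-0.23 ± 0.07, 0.0315). Fluoxetine in HT gave 0 calls in these lists by limma, with 2 of their 56 genes at an unadjusted p below 0.05, against 7.25% of all genes. The calls in these lists were not looked at with the GC and length correction. Under lithium in HT that correction lowered the share of all genes called from 9.77 to 2.82%.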

How the data were processed

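Poly(A) RNA was sequenced with a strand-specific TruSeq kit, per the labels' protocols. The deposited values are a signal, namely counts per gene that the authors had scaled by a size factor for each library. Salmon 0.11.2, R 3.6.0, DESeq2 1.19.11 and the build GRCm38 are named in the submitters' processing notes, without roles. Every deposited value was a whole multiple of its column's step (100% within 1e-06), so reads could be recovered, from 22984556 to 35969254 per library, and their number sets the counting error. Size factors scale a library as a whole, so a change in total RNA per cell is not seen, and a gene-level value joins all its transcripts.

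Of 59 columns, 56 were matched to samples by library name, 3 matched none and were not used, and for 1 of the 57 labelled samples (WT lithium, female) no column was found, so it was left out. Libraries of the same group all differed by more than sampling noise (smallest chi-square per degree of freedom 4.71 over 105 pairs). Values were tested as log2(value + 1), which understates fold changes of low genes, in 1 limma-trend fit over all 12 groups (limma 3.58.1, R 4.3.3). Tests were two-sided, with Benjamini-Hochberg adjustment over the 18026 genes with at least 10 in at least 3 libraries, and called at 0.05. There were 7 comparisons with the sexes averaged, 2 interactions and 5 sex differences. Levels per kb use the longest transcript in GENCODE. Correlations with the olfactory level were permutation tests over libraries, which treat the groups as exchangeable.

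The subunit genes, classes and lists were chosen with earlier results of these data known. Results of some subunit genes are not reported here, though counts, medians and shares include them, and figures leave them out. Named genes were otherwise every called gene, examples by level, and library values for genes among the 12 called most often, and the genes shown against the olfactory level were chosen after their values were seen. Alternatives were TMM factors, no filter, a pseudocount of 5, compared groups only, array weights, edgeR 4.0.16 on the recovered reads, a replicate block, a GC and length correction, both together, the olfactory level as a covariate, and leaving out the libraries that stood apart or each library in turn. Leaving out libraries of olfactory level above 2 was added after the data were seen. Fits were tested on simulated counts.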

Additional observations from a re-analysis of the deposited data

Results flagged for a closer look

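A library far from the others of its group was found in 4 of 132 groups of 4 or 5 libraries looked at (Dixon's test at 95%, by which chance flags about 1 in 20 groups), among the 12 genes called most often. Cacna1g read 4618 in WT fluoxetine male 4, where the others lay between 4116 and 4261, and 4595 in WT vehicle male 1, where the others lay between 3832 and 4039. Cacna1a read 5607 in HT fluoxetine male 5, below the others at 6805 to 7201, and 8886 in HT lithium male 2, above the others at 7738 to 7874.

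The fluoxetine effect in WT differed between the sexes by limma for 5 genes (male minus female effect, log2). The difference was -0.37 for Cacna1i, -0.52 for Cacna1h, -0.55 for Kcnh2, -0.32 for Kcnf1 and 0.45 for Cacna2d1. Leaving out 1 library moved this count by more than 1.5 times in 15 of 20 cases, and it was 0 without the libraries of olfactory level above 2. It was also 0 with the GC and length correction and 0 with the compared groups only. What the 5 calls rest on was not tested.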

How the results depend on the processing

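Over 3830 values of named genes under the alternatives, 3528 stayed on the same side of the threshold with the same sign, 214 lost their call, 58 gained one, 30 changed sign while called under neither setting and 0 changed sign where either setting called them. The counts of called subunit genes moved by more than 1.5 times as follows, with the share of all genes called in brackets. Under lithium in WT they were 5 (8.84%) with the GC and length correction and 23 (19.3%) with the olfactory covariate, from 13 (11.7%). Under lithium in HT they were 0 (2.82%) with that correction, 21 (17.6%) with the olfactory covariate and 14 (19.2%) with array weights, from 7 (9.77%). Under fluoxetine in WT they were 4 (2.34%) with the compared groups only, 0 (2.64%) with the GC and length correction, 15 (11%) with the olfactory covariate, 16 (16%) with array weights and 14 (6.95%) without libraries of olfactory level above 2, 4 of them from the original 8 (5.18%). HT against WT under fluoxetine gave 12 (5.94%) with array weights, 4 higher and 8 lower, from 0 (0%). The sex difference of lithium in HT gave 2 (4.76%) with array weights, from 0 (0.172%). The sex difference of fluoxetine in WT gave 0 (2.1%) with the compared groups only, 0 (0.0111%) with the GC and length correction, 28 (25.7%) with array weights, 8 (9.89%) without the libraries that stood apart and 0 (0.0111%) without those of olfactory level above 2, from 5 (7.74%). The cause was not tested.

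Leaving out 1 library gave 10 to 16 calls under lithium in WT, 5 to 9 in HT, 3 to 10 under fluoxetine in WT, 0 to 1 for HT against WT under fluoxetine and 0 to 21 for the sex difference of fluoxetine in WT, with 0 in every other count. Under fluoxetine in WT the count fell to 3 without WT fluoxetine female 2, 4 without WT fluoxetine male 4 or WT vehicle male 5, and 5 without WT vehicle female 3 or WT vehicle male 3. The 1 call of HT against WT came without WT fluoxetine female 5. Replicate numbers did not pair the libraries: 67 of 289 same-numbered pairs had a correlation above 0.1, with a median of -0.003. With the replicate number as a block the counts were 14, 7, 9 and, for the sex difference of fluoxetine in WT, 4, and with block and GC correction 5, 0, 0 and 0. With the union of exons in place of the longest transcript, 24 of 72 levels per kb moved by more than 1 SD.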
